A study of Mus musculus with 14 samples.

Results

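Translation initiation and elongation factors were examined in single retinal ganglion cells (RGCs), the neurons that send the output of the retina to the brain. The set held every gene whose symbol begins with Eif1 to Eif6, Eef1 or Eef2 in the annotation of the array and that had a probe set assigned to 1 gene alone. It numbered 58 of the 18193 genes measured in this way, of which 47 carried an Eif and 11 an Eef symbol, so that enzymes named after a factor they modify were included. Where a gene had several such probe sets, the one whose mean log2 signal was highest was used. Eif1, Eif2s1, Eif3g, Eif3j1, Eif3j2, Eif4e1b, Eif4g1, Eif4ebp3, Eef1g, Eef1akmt3 and Eef1akmt4 were not analysed here, since no probe set of theirs met this condition.

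Initiation factors bring the initiator tRNA and the small ribosomal subunit to the capped 5′ end of an mRNA and select the start codon. Elongation factors then deliver each aminoacyl-tRNA to the ribosome and move the ribosome along the message. The cap complex and the tRNA carrier eIF2 are the points at which growth signals and stress kinases regulate protein synthesis, and neurons also express their own isoforms of several factors, of which eEF1A2 in place of eEF1A1 is the best known.

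The data were 14 single tdTomato+ cells of adult mice on a mixed background, named here cell 1 to cell 14, each hybridised to 1 Affymetrix mouse expression array. The mice were offspring of PV-Cre and Ai9 reporter animals, whose backgrounds the sources give differently (129P2/OlaHsd for PV-Cre and C57BL/6 with 129 SV for Ai9 in the labels, a mixed C57BL/6 and 129P2OlaHsd origin for PV-Cre and C57BL/6J for Ai9 in the methods), so a cell was red where Cre had been made from the parvalbumin gene Pvalb at any time. Cells were picked after papain dissociation with no culture, their RNA was copied from an oligo-dT primer and amplified by 35 cycles of PCR, and libraries were screened by PCR for Sncg and against rhodopsin and glutamine synthetase. The cells formed 1 group, no cell was tied to an animal, and no contrast between groups could be tested, so every value is a description of these 14 cells.

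Detection meant a signal, the MAS5 intensity in arbitrary units, that reached 8 times the median of all probe sets on the same array. This threshold lay between 64.2 and 439.7, with the highest values in cell 1 (439.7) and cell 10 (292.4). The number of genes detected per cell lay between 2540 in cell 5 and 6849 in cell 12, and cell 13 was the next lowest with 2702. Among 10 markers of RGCs, 7 were found in all 14 cells and 8 to 10 in each cell. Of 10 rod markers, 9 were detected in cell 3 and in cell 6 and 1 to 3 in the others. Of 9 markers of Müller glia, 5 were detected in cell 4, none in cell 5 and 1 to 4 in the others, and Glul, the gene of glutamine synthetase, was detected in 8 cells. Of 9 amacrine markers, 5 were detected in no cell, Pax6 in 12 cells, Slc6a9 in 6, Slc32a1 in 3 and Gad2 in cell 1. Of 6 bipolar markers, 2 were detected in none, and Isl1, also an RGC marker, in 10 cells. Prkca was detected in 8 cells, Pcp2 in 4 and Otx2 in 1. No cone, horizontal, microglial, or endothelial and pericyte marker reached 7 cells. Of the last, Cldn5 and Kdr were detected in cell 6 alone, Tek in cell 4 alone and Pdgfrb in 4 cells. The part that RNA of other cell types had in the values was not tested, and the 33 and 41 translation factors detected in cells 3 and 6 lay within the range of the other cells.

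Many mRNAs of the translation machinery begin with a C followed by a run of pyrimidines, the 5′ terminal oligopyrimidine motif, through which mTOR controls their own translation. The bases around the annotated transcription starts of a few members are given here because Eef1a1 and Eef2 are classical mRNAs of this kind. The printed windows of isoform pairs also differed, which does not show that their mRNAs differ in the motif. Sequences are from RefSeq (build GRCm38.p6), 15 bases before the start and 15 from the start on, on the strand of the gene, and capitals mark a C followed by at least 4 bases of C or T that begins within 10 bases before the start or in the 15 after it.
Eef1a2: tctctcctggtctgcgttctcgctcactgg
Eef1a1: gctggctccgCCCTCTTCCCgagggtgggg
Eef2: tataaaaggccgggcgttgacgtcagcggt
Eif3f: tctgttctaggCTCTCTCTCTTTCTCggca
Eif2b5: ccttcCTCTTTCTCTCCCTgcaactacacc
Eif2s3y: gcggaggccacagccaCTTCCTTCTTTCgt
Eif2s3x: ctgccgagcattttCCTTTTCTCTCCgagc

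These windows lie at chr2:181157001-181157030 (minus strand) for Eef1a2, chr9:78481710-78481739 (minus) for Eef1a1, chr10:81176616-81176645 (plus) for Eef2, chr7:108934400-108934429 (plus) for Eif3f, chr16:20498802-20498831 (plus) for Eif2b5, chrY:1010580-1010609 (plus) for Eif2s3y and chrX:94212637-94212666 (minus) for Eif2s3x. Each spans a start of transcription as annotated, and the start used in these cells was not measured. Annotated starts were found for 47 of the 58 members, 62 starts in all. The start base itself was a C followed by at least 4 bases of C or T in 2 of them (3.23%), those of Eif3f and Eif2s3x, where the marked run begins earlier and spans the start, against 2.51% of all 32851 starts, and the motif lay within the searched window in 21 (33.9%), against 30.7% of all starts. For the cytosolic ribosomal proteins the shares were 15.7% and 54.9%. The 17 members with a motif in the window were detected in a median of 10 cells and the 30 without one in a median of 11. A match is a description of the letters, and the absence of a match in Eef2 or Eef1a2 says only that this window did not hold it. The annotated start base of Eef1a1 was not such a C, so its marked run is not shown to be its 5′ terminal motif.

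Translation factors were detected in more of the cells than most genes. Of the 58 members, 7 (12.1%) were detected in all 14 cells, against 2.64% of all genes, and 44 (75.9%) in at least 7 cells, against 24.8% of all genes. A further 11 were detected in 1 to 6 cells and 3 (5.17%) in no cell, against 41.8% of all genes in no cell. The median was 10 cells for the members and 1 cell for all genes. Initiation factor genes had a median of 10 cells, with 37 of 47 in at least 7, and elongation factor genes a median of 9 cells, with 7 of 11 in at least 7. Several probe sets were present for 72.4% of the members and 49.5% of all genes, which gives a gene more chances to be read. Among genes with only 1 probe set, 13 of 16 members (81.2%) were detected in at least 7 cells, against 15.5% of all genes of that kind.

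**Figure D1:**
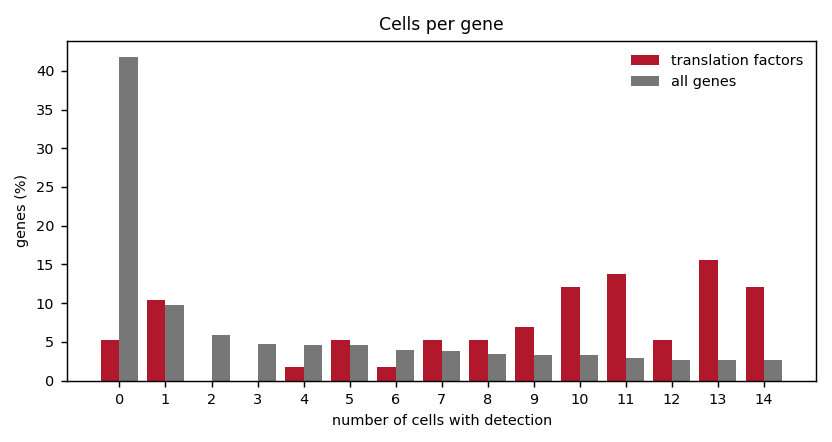
Share of genes (%) plotted against the count of cells with detection, for the 58 translation factors (red) and all 18193 genes (grey). The members pile up between 10 and 14 cells, whereas 41.8% of all genes were detected in no cell.

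Other parts of the translation machinery gave different counts under the same rule. Of 49 cytosolic ribosomal protein genes, 20 (40.8%) were detected in all 14 cells, with a median of 13 cells, and 4 in none. Of 76 mitochondrial ribosomal protein genes none was detected in all 14 cells, 54 were detected in at least 7, and the median was 8 cells. The translation factors thus lay between the ribosomal proteins of the cytosol and those of mitochondria in the share detected in every cell. In at least 7 cells the shares lay closer together, at 75.9% for the factors, 77.6% for the cytosolic and 71.1% for the mitochondrial ribosomal proteins. No test was made of these differences.

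Where a factor was detected its signal was mostly at least 1000. Of the 812 values of the members, 521 (64.2%) counted as detected, against 25.2% of the values of all genes. Of the detected values 425 (81.6%) were at least 1000, against 68.8% over all genes, and of the 291 values not detected 271 were below 100. Probe sets share no scale, so the signals of 1 gene are compared here between cells and not with those of another gene. Shares of values of at least 1000, and medians over the members of a cell, pool different probe sets and are rough descriptions.

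**Figure D2:**
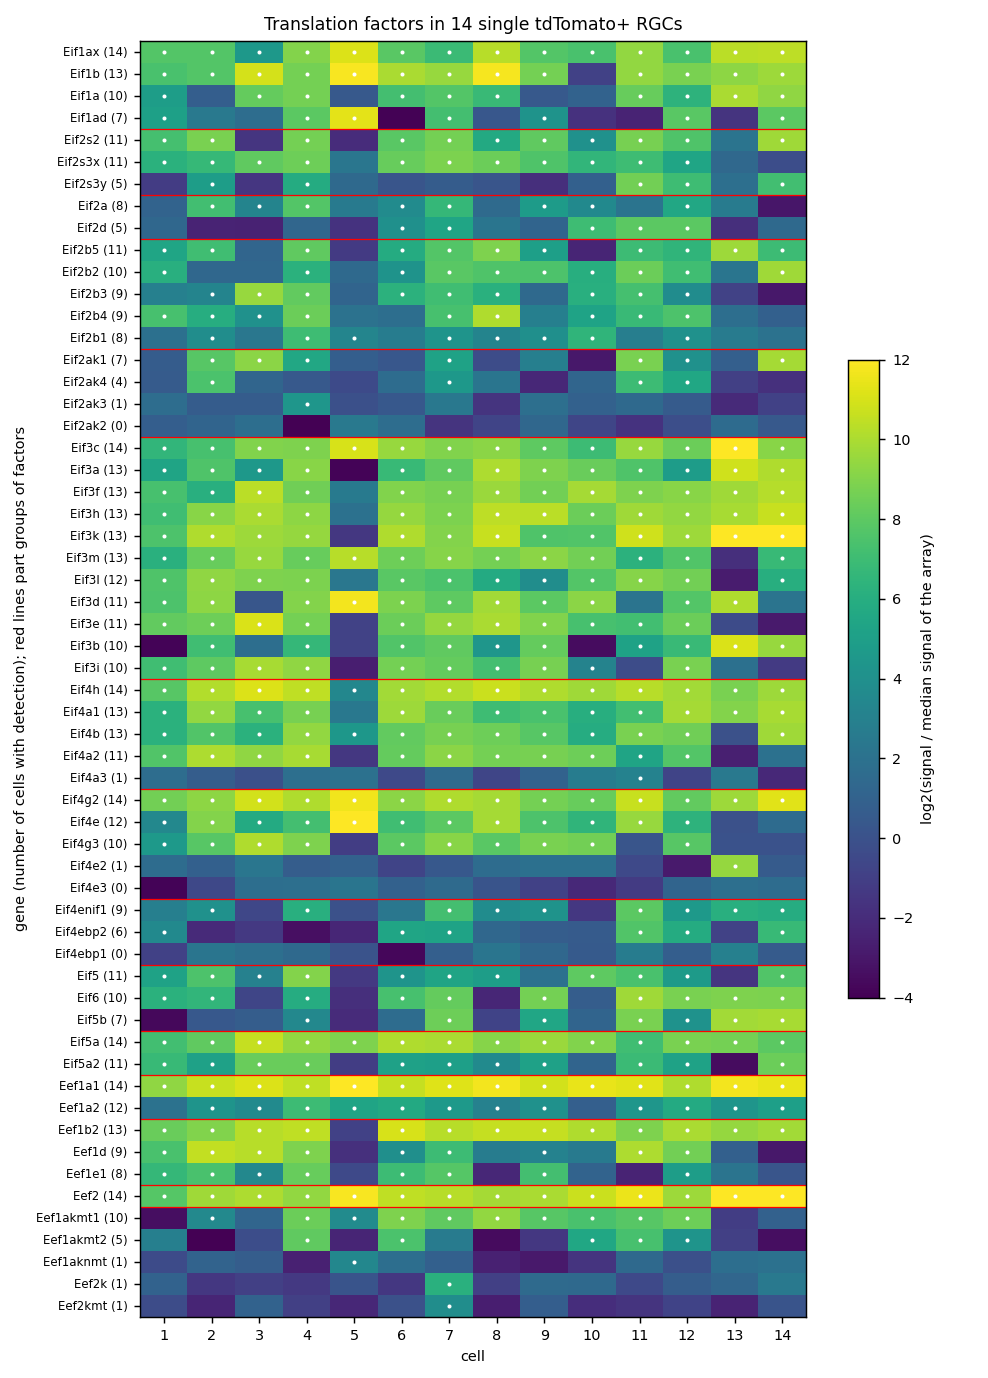
Signal of each translation factor in each cell, as log2 of the signal over the median signal of that array (colour, held between -4 and 12). Columns are the 14 cells, rows are the 58 genes ordered by role with the number of cells with detection in parentheses, white dots mark detection, red lines part the groups, and colours are to be compared along a row only. Cells 5 and 13 have the fewest dots, and most rows of the eIF2 kinases and elongation factor enzymes have few dots.

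Cells differed widely in how many factors were detected. The lowest counts were 17 in cell 5 and 23 in cell 13, the others lay between 32 and 49, and the highest count of 49 was found in cells 7 and 12. The mean was 64.2% ± 16.02 of the members per cell, against 25.2% ± 7.21 of all genes (SD, n = 14 cells). In every cell the share of the members exceeded that of all genes, by 2.10 times in cell 5 to 3.11 times in cell 11. The number of factors followed the number of genes detected in the cell (r = 0.922, rho = 0.919 over 14 cells, and r = 0.907 without cells 5 and 12), and both counts come from the same arrays and the same threshold. The ratio of Gapdh signals from the 3′ to the 5′ end, a measure of RNA or cDNA integrity, was 1.09 to 2.61. It was highest in cell 14 (2.61) and next highest in cell 13 (1.95), and stood at 1.21 in cell 5. Its part in the counts was not tested.

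**Figure D3:**
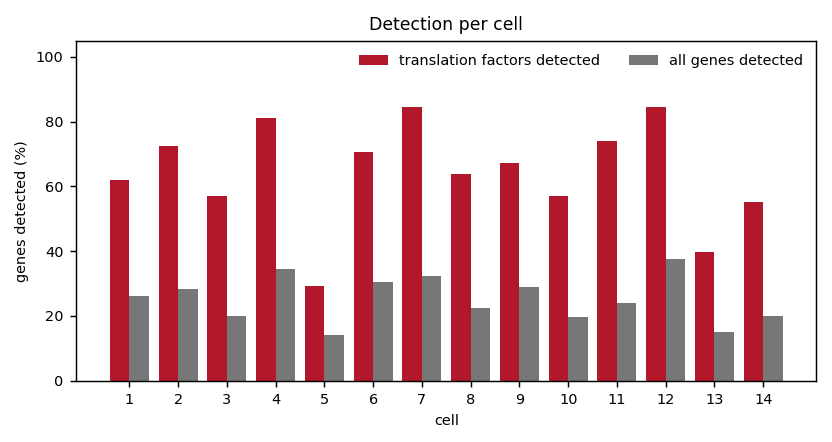
Share (%) of the 58 translation factors (red) and of all 18193 genes (grey) detected in each of the 14 cells. The share of factors is the larger in every cell and lies between 29.3% in cell 5 and 84.5% in cells 7 and 12.

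The 7 members detected in all 14 cells came from different steps of translation. Eef1a1, which carries aminoacyl-tRNA to the ribosome, had signals of 14515 to 102430.0 with a median of 36134, and its SD of 0.70 on the log2 scale ranked 52 from the lowest among the 480 genes detected in all cells. Eif4g2, a scaffold related to eIF4G that does not bind the cap protein, lay between 4711 and 28919 with a median of 12397 (SD 0.75). Eef2, which moves the ribosome to the next codon, lay between 7179 and 60916 with a median of 19651 (SD 0.91). These 3 genes were the steadiest members across cells, each spanning a range of less than 9 times. Eif3c, a core subunit of the scaffold eIF3, spanned 2470.2 to 62756.5 (median 6588, SD 1.11) and was highest in cell 13. Eif5a, the hypusine-bearing factor that helps the ribosome through difficult peptide bonds, spanned 1984 to 23185 (median 7548, SD 1.14).

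Eif1ax, the X-linked copy of the start codon factor eIF1A, was lowest in cell 3 at 358 and otherwise lay between 1842 and 18706, with a median of 5813 and an SD of 1.56 on the log2 scale. Eif4h, a cofactor of the eIF4A helicases, read 86.3 in cell 5, just above the threshold of 65.3 in that cell, and 6066 to 35213 in the other 13 cells. Its SD of 2.14 ranked 458 of the 480 genes. Detection in every cell therefore included 1 gene that was near the floor in a cell with few genes. The remaining 37 members of at least 7 cells comprised 9 detected in 13 cells. With the chosen probe sets, cell 5 was the missing cell for Eif3a, Eif3f, Eif3h, Eif3k, Eif4a1 and Eef1b2, cell 13 for Eif3m and Eif4b, and cell 10 for Eif1b. Another probe set of Eif3a was detected in cell 5, so that Eif3a was read in all 14 cells when any probe set counted. Of the 44 members of at least 7 cells, 16 were undetected in both cell 5 and cell 13, 12 in cell 5 only, 6 in cell 13 only, and 10 were detected in both. Without those cells, 16 members were detected in all 12 cells left, against 4.66% of all genes.

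Among the factors of start codon selection, Eif1b, a close relative of eIF1 that keeps the scanning ribosome open, gave signals of 3119 to 49982 in 13 cells and read 19.6 in cell 10, where it was not detected. Eif1a, the autosomal gene of eIF1A, was detected in 10 cells at 1345 to 13596 and read at most 73.2 in cells 2, 5, 9 and 10, of which cell 9 was detected by another probe set. This left a gap of 4.20 on the log2 scale between its lowest detected and its highest undetected signal, the second widest among the members of 4 to 10 cells. Eif1ad, which contains an eIF1A-like domain, was detected in 7 cells and was highest in cell 5 (21393). Eif1ax and Eif1a were detected together in 10 cells and Eif1ax alone in 4. The within-cell difference between Eif1ax and Eif1a varied with an SD of 3.84 on the log2 scale, and their signals were nearly unrelated across cells (r = -0.06, rho = 0.03).

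The carrier eIF2 binds the initiator tRNA and GTP, and 3 of its genes were measured. Eif2s2, the beta subunit, was detected in 11 cells at 618 to 8598, and not in cells 3, 5 and 13, although other probe sets of it were detected in cell 13. The gamma subunit has an X-linked gene, Eif2s3x, and a Y-linked gene, Eif2s3y. Eif2s3y was detected in cells 2, 4, 11, 12 and 14 at 455 to 5719 and read at most 67.5 elsewhere, a gap of 2.75 on the log2 scale. Eif2s3x was detected in 11 cells at 702 to 7224 and read at most 40.0 in cells 5, 13 and 14. Both were thus detected in 4 cells, Eif2s3y alone in cell 14, Eif2s3x alone in 7 cells and neither in cells 5 and 13. The SD of their within-cell difference, 5.21 on the log2 scale, was the widest of the isoform pairs with both genes detected somewhere together. Eif2a and Eif2d, which can bring initiator tRNA to the ribosome without eIF2, were detected in 8 and 5 cells.

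The exchange factor eIF2B reloads eIF2 with GTP, and its 5 subunits were detected in 8 to 11 cells each. Eif2b5, the catalytic subunit, was detected in 11 cells at 677 to 10988, Eif2b2 in 10, Eif2b3 and Eif2b4 in 9 and Eif2b1 in 8. All 5 were detected together in cells 4, 7, 8 and 12, whereas cells 5 and 13 each had 1. Cells 4, 7 and 12 were also the cells with the most genes detected.

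Of the 4 kinases that phosphorylate eIF2 under stress, 1 was detected in at least 7 cells, a share (25.0%) close to the 24.8% of all genes. Eif2ak1, known for sensing haem, was detected in 7 cells at 283 to 9096, and Eif2ak4, known for sensing amino acid shortage, in cells 2, 7, 11 and 12 at 357 to 2601. Eif2ak3, the kinase of the endoplasmic reticulum, was detected in cell 4 alone at 220.4, and Eif2ak2, which responds to double-stranded RNA, in no cell, with a highest signal of 94.8. In 7 of the 14 cells none of the 4 kinases was detected. The choice of probe set mattered here, since with any probe set counted Eif2ak1 was detected in 11 cells, Eif2ak4 in 5, Eif2ak3 in 3 and Eif2ak2 in 1, and the cells without any of them numbered 2 (cells 5 and 10).

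Of the large scaffold eIF3, which holds the initiation complex together, 11 subunits were measured and each was detected in at least 10 cells. Eif3c was detected in 14, Eif3a, Eif3f, Eif3h, Eif3k and Eif3m in 13, Eif3l in 12, Eif3d and Eif3e in 11, and Eif3b and Eif3i in 10. All 11 were detected in cells 2, 4, 6, 7, 8, 9 and 12. Cell 5 had 3 of them, Eif3c, Eif3d and Eif3m, and the other cells had 7 to 10. Where a subunit was missing its signal was usually far lower than elsewhere. Eif3h lay between 6594 and 27814 in 13 cells and read 32.4 in cell 5, Eif3k lay between 4012 and 54877 and read 3.10 in cell 5, and Eif3m lay between 892 and 14349 and read 3.83 in cell 13. Cell 13 had the highest signals of Eif3a (24981), Eif3b (30114), Eif3c and Eif3k while Eif3m, Eif3l (1.95), Eif3e (10.7) and Eif3i (49.7) were not detected there. The detected members of all kinds had a median signal of 11487 in cell 13 and 17442 in cell 5, against 3096 to 9805 in the other cells. These medians include the eIF3 subunits and cover different genes in each cell. Whether the high signals beside undetected genes in cell 13 were particular to eIF3 was not tested.

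Among the proteins that unwind the 5′ end of the message, Eif4a2, the eIF4A isoform known to be abundant in brain, was detected in 11 cells at 606 to 15591 and Eif4a1, the general isoform, in 13 cells at 1864 to 15064. Eif4a2 read 3.14 in cell 5, 2.26 in cell 13 and 31.4 in cell 14, and Eif4a1 read 44.0 in cell 5 only. Both were detected in 11 cells, Eif4a1 alone in cells 13 and 14, and neither in cell 5. No cell had Eif4a2 alone. The within-cell difference had an SD of 4.12 on the log2 scale, and r was 0.356 over 14 cells and -0.259 without the 2 cells farthest from the median, so no steady relation was seen. Eif4b, a cofactor like Eif4h, was detected in 13 cells, with 182 in cell 5 and 1113 to 7186 in the 12 others. Eif4a3, a helicase of the exon junction complex, passed the threshold in cell 11 alone at 127.5, below its undetected signal of 238.5 in cell 10, where the threshold was higher. A further probe set of Eif4a3, assigned also to another gene, was left out by the single-gene rule. The same held for a probe set of Eif1a.

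The cap itself is bound by eIF4E. Eif4e was detected in 12 cells at 608 to 32379.7, highest in cell 5, and read 13.1 in cell 13 and 24.4 in cell 14. Eif4e2, a homologue known as a translational repressor that occupies the cap, was detected in cell 13 alone at 9659.5, against at most 176 in the other 13 cells, and Eif4e3 was detected in no cell (highest signal 51.6). Cell 13 was 1 of the 2 cells without Eif4e, so no cell had both. This rests on 1 library with few genes detected (2702) and shows no relation between the 2 genes. A further probe set of Eif4e2 was also detected in cell 13 and in no other cell (5251), while the remaining 3 were detected in none. Of the scaffolds, Eif4g3 was detected in 10 cells at 1349.8 to 16978.5 and read at most 17.1 in cells 5, 11, 13 and 14, the widest gap among the members of 4 to 10 cells (6.31 on the log2 scale).

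Of the proteins that restrain eIF4E, Eif4ebp2, the eIF4E-binding protein best known from brain, was detected in cells 1, 6, 7, 11, 12 and 14 at 592 to 2924 and read at most 55.4 elsewhere, a gap of 3.42 on the log2 scale. Eif4ebp1 was detected in no cell, with a highest signal of 104.0. Another probe set of Eif4ebp1 passed in cell 13 (108.4, against a threshold of 108.3), and other probe sets of Eif4ebp2 added cells 5 and 9. Eif4enif1, which carries eIF4E into the nucleus, was detected in 9 cells at 196 to 3661.

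The factors that complete initiation were detected in 7 to 11 cells. Eif5, which makes eIF2 hydrolyse its GTP, was detected in 11 cells at 123 to 9665. Eif6, which keeps the large ribosomal subunit apart until it is needed, was detected in 10 cells at 630.3 to 12370.1 and read at most 60.0 in cells 3, 5, 8 and 10, a gap of 3.39 on the log2 scale. Eif5b, the GTPase that joins the subunits, was detected in 7 cells at 115 to 12109.9 with the chosen probe set and in 10 with any. Eif5a2, a second eIF5A gene with narrower expression, was detected in 11 cells at 181 to 5916.5 and not in cells 5, 10 and 13, always beside Eif5a, which was detected in all 14. The within-cell difference between Eif5a2 and Eif5a had an SD of 3.72 on the log2 scale and r was 0.02 over 14 cells. With the probe sets of each gene averaged, both were detected in 7 cells. A second probe set of Eif5a2 was detected in cells 4 and 7.

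The neuronal and the general isoform of eEF1A were both detected in most cells, and their signals ran in opposite directions across cells. Eef1a2 signals ran between 65.55 and 1329 with a median of 299.9. The range of Eef1a1 is given above, and the levels of these probe sets are not comparable with each other. Eef1a2 was detected in 12 cells and Eef1a1 in 14, so that 12 cells had both and cells 1 and 10 had Eef1a1 alone. Those are the arrays with the highest thresholds. The Eef1a2 signal of 222.5 in cell 1 exceeded the 119 and 188.5 that counted as detected in cells 8 and 3, whereas the signal in cell 10 was the lowest of all. Cell 4 had the highest Eef1a2 signal (1329) and the lowest Eef1a1 signal (14515), and cell 10 had the lowest Eef1a2 signal and the highest Eef1a1 signal.

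Over the 14 cells r was -0.865 and rho -0.596 on log2(signal + 32), and r was -0.699 without cells 4 and 10. This r was the lowest among the 946 pairs of the 44 members detected in at least 7 cells, and each gene had only 1 probe set. The rank held for r over all 14 cells only. Eif2ak1 with Eif3d had a lower rho (-0.864) and a lower r without 2 cells (-0.749 without cells 3 and 14). Eef1a2 was higher in cells with more genes detected (r = 0.679) and Eef1a1 lower (r = -0.608). With the number of genes detected held constant the r between Eef1a2 and Eef1a1 was -0.777. The within-cell difference of Eef1a2 from Eef1a1 had an SD of 1.77 on the log2 scale, the narrowest of the pairs measured, and its departure from the median ran between -3.74 in cell 10 and 3.42 in cell 4.

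**Figure D4:**
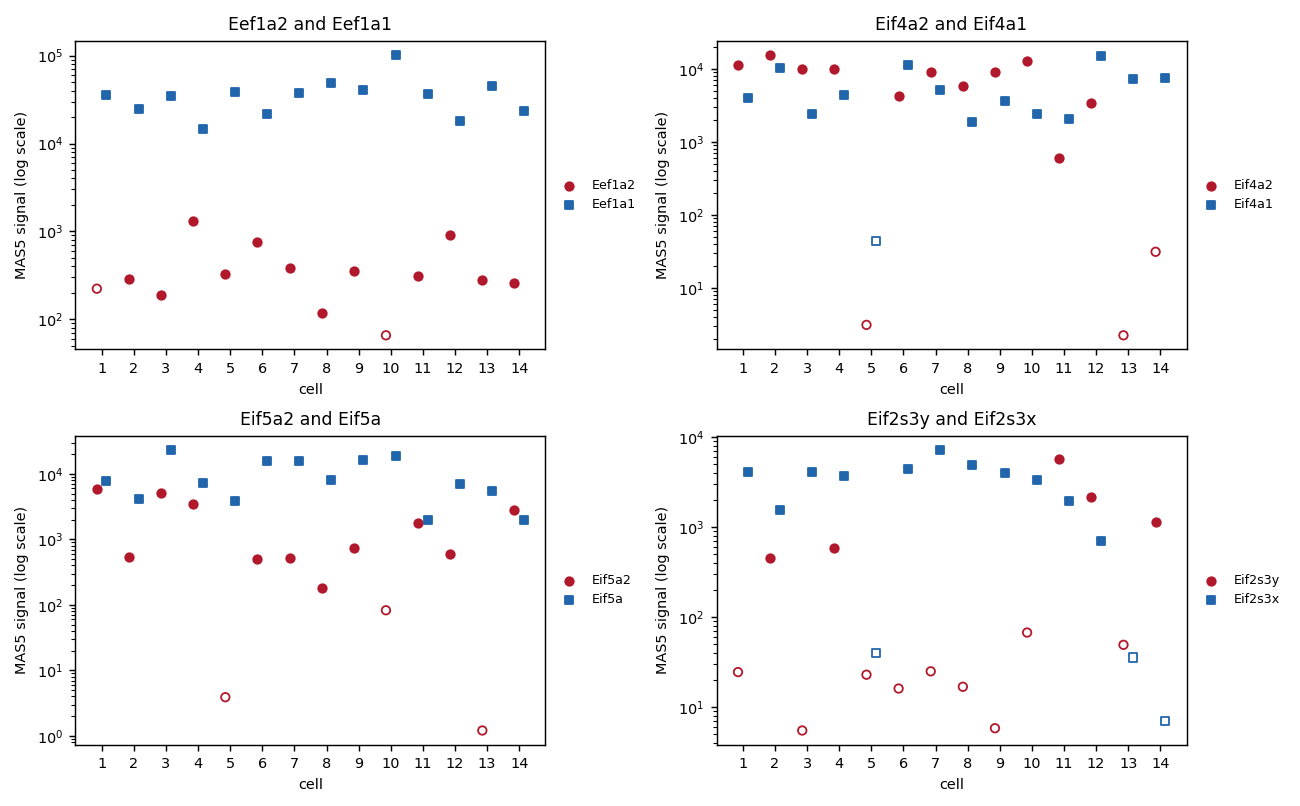
MAS5 signal (arbitrary units, log axis) of both genes of 4 isoform pairs in the 14 cells, with the specialised or Y-linked gene as red circles and the general or X-linked gene as blue squares. Filled points were detected and open points were not, and levels are to be compared between cells and not between genes. Eef1a2 is highest in cell 4, where Eef1a1 is lowest, and Eif2s3y is detected in 5 cells and Eif2s3x in 11.

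The exchange complex that reloads eEF1A with GTP was represented by Eef1b2 and Eef1d. Eef1b2 was detected in 13 cells at 6979 to 40050.5 and read 4.31 in cell 5, the largest gap of any member with an undetected cell (10.66 on the log2 scale). Eef1d was detected in 9 cells at 178 to 21593. Eef1e1, a small protein of the aminoacyl-tRNA synthetase complex that carries an eEF1 name, was detected in 8 cells at 171.5 to 5491, and not in cells 5, 8, 10, 11, 13 and 14. Eef2 was present throughout, but Eef2k, the kinase that inactivates it, was detected in cell 7 alone at 1102, against at most 110.1 elsewhere.

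The enzymes that modify elongation factors had a median of 1 cell, the same as all genes, with 1 of 5 in at least 7 cells, against 24.8% of all genes. Eef1akmt1, a lysine methyltransferase of eEF1A known from human cells, was that gene, with 10 cells at 108 to 9782. Eef1akmt2 was detected in 5 cells, Eef2kmt in cell 7 alone (229) and Eef1aknmt, which in human cells methylates both a lysine and the first residue of eEF1A, in cell 5 alone (86.8). Eef2k and Eef2kmt, which act on eEF2, were both detected in cell 7 and nowhere else, and this cell had the joint highest number of factors. Other probe sets of Eef1aknmt were detected in cells 6, 10, 11 and 12, with signals of up to 5081, and not in cell 5.

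Detection depended on the threshold of the array as well as on the signal in 7 members, Eef1a2, Eef1d, Eef1akmt2, Eif2b1, Eif2b3, Eif4a3 and Eif4enif1. In each of these the highest undetected signal, always in cell 1 or cell 10, lay above the lowest detected one. For Eif2b1 the difference was 206.8 in cell 1, not detected, against 79.3 in cell 5, detected. The probe sets of 8 members carried the suffixes of the array for sequence shared with other transcripts, 6 of the kind x_at (among them those of Eif3c, Eif4h, Eif3e and Eif2s3x) and 2 of the kind s_at (Eif5a and Eif3m), so signals of related sequences cannot be told apart there.

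Correlations between members across cells were weak in general. For the 946 pairs of the 44 members detected in at least 7 cells the median r was 0.141, against 0.079 for all pairs of the 4507 genes detected as often, and 0.039 for cytosolic ribosomal proteins. An r of at least 0.7 was found in 43 member pairs (4.54%), against 1.76% of all pairs. The median was 0.126 among eIF3 subunits and 0.318 among eIF2B subunits, but -0.025 for eIF3 without cells 5 and 13 and 0.005 for eIF2B after quantile normalization. All pairs share the same 14 amplified libraries, and cells 5 and 13 with few genes weigh on each of them. Without these cells the median was 0.019 for the members, 0.028 for all genes and 0.11 for cytosolic ribosomal proteins, and after quantile normalization it was 0.096 for the members, 0.027 for all genes and 0.137 for cytosolic ribosomal proteins. The ribosomal proteins thus lay above the members in both of these settings.

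The highest values were found for Eif3e with Eif4a2 (r = 0.951, rho = 0.631) and for Eif2s3x with Eif3e (r = 0.951, rho = 0.771). Eif2s3x, Eif3e and Eif4a2 were each detected in the same 11 cells and missing in cells 5, 13 and 14. Without these 3 cells, a setting chosen after seeing the data, r was 0.549 (rho = 0.273) for Eif3e with Eif4a2 and 0.466 (rho = 0.536) for Eif2s3x with Eif3e. Eif4a2 with Eif4g3 had an r of 0.922, and of 0.819 (rho = 0.291) without those cells. The values of Eif3e with Eif4a2 and of Eif2s3x with Eif3e thus rested on cells in which both genes were at the floor. Eef1b2 with Eif4h (r = 0.948) was 0.434 without cells 5 and 14, so this value rested on those cells. Eef1a1 with Eef2, both needed at each step of elongation, had an r of 0.651 (rho = 0.569), which was 0.282 without cells 4 and 10 and 0.045 after quantile normalization between arrays. Among negative values, Eif2ak1 with Eif3d had an r of -0.857 (rho = -0.864) and of -0.749 without cells 3 and 14.

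Of 58 other genes in 7 lists that act with these factors, 1 was detected in all 14 cells, 32 (55.2%, against 24.8% of all genes) in at least 7, 24 in 1 to 6 and 2 in none, with a median of 7 cells. Termination, recycling and rescue factors were detected in at least 7 cells in 7 of 8 cases, with Mcts1, a recycling factor that works with Denr, in 12 cells and Etf1, which reads stop codons, in 11. All 6 poly(A) tail proteins were detected in at least 7 cells, with Paip2, a repressor of the poly(A)-binding protein, in 13 and Pabpc1 in 9. Of 16 genes that signal to initiation 9 were detected in at least 7 cells. Rheb, the GTPase that activates mTOR, was the gene detected in all 14 (609 to 29293), and Mtor was detected in 13.

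Genes around the eIF2 kinases ranged widely. Atf4, the transcription factor whose translation rises when eIF2 is phosphorylated, was detected in 13 cells at 1412.5 to 41869, and Impact, an inhibitor of Eif2ak4 known from brain, in 12 cells at 4511 to 27906. Gcn1, the activator of Eif2ak4, was detected in 5 cells and Ppp1r15a, which returns eIF2 to its unphosphorylated state, in 1. Of the hypusine and diphthamide enzymes, which modify eIF5A and eEF2, 3 of 7 were detected in at least 7 cells, with Dhps in 10, Dohh in 6 and Dph1 in none. Neuronal translational repressors reached 7 cells in 2 of 7 cases (28.6%), Fmr1 (10 cells) and Cyfip2 (12 cells), and the 4 Cpeb genes were detected in 3 or 4 cells each. Mitochondrial translation factors reached 7 cells in 2 of 9 cases (22.2%), Tufm (9 cells) and Mrrf (7 cells), and both shares lie near the 24.8% of all genes.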

How the data were processed

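RNA of 14 single cells was measured on 1 array each. The authors deposited a table with the signal intensity of each probe set, computed by MAS5 on a linear scale with each array scaled by its own factor. Its version was not given in the sources used here. Of 45101 probe sets, 64 were controls and 45037 were used. Probe sets were named through the platform annotation, whose symbols were brought up to date from RefSeq (GRCm38.p6), and those with several genes were left out.

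Members and gene lists were chosen with earlier results of these data known. Cells formed 1 group with no animal given, so no test was made, and values are descriptions. Detection was 8 times the array median. Correlations used log2(signal + 32) without p-values. The number of arrays limits the precision. Genes named with values were all isoform pairs, members in all or no cells, those with the widest gaps, those of highest and lowest SD among members in all cells, and the eIF2, eIF2 kinase and eIF3 groups. Further members and pathway genes were named after their values were seen, to account for the whole set. Thresholds, probe set rules, normalization and cells left out were varied. Counting and correlation were tested on simulated data. Python 3.11.15, pandas 2.3.3, numpy 2.4.6 and matplotlib 3.10.9 were used.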

Additional observations from a re-analysis of the deposited data

How the results depend on the processing

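The number of translation factors detected in at least 7 cells (at least 6 where 2 cells were left out) lay between 34 and 45 under every alternative, and the number detected in every cell between 5 and 9, except that it was 16 without cells 5 and 13. The shares of all genes moved too. Under the alternatives they lay between 15.3% and 30.7% in at least 7 cells by the same rule. In every cell they lay between 1.65% and 4.66%, with the highest share without cells 5 and 13. The number detected in no cell, 3 as reported, was 0 at 4 times the array median, 6 at 16 times, 7 at a fixed signal of 1000, 6 with the probe sets of a gene averaged, 1 with any probe set counted and 5 without cells 5 and 13. Of all genes, 41.8% were detected in no cell as reported, 23.4% at 4 times the median and 46.9% at 16 times. This share was 53.6% at a signal of 1000, 49.7% with probe sets averaged, 39.7% with any probe set and 43.95% without cells 5 and 13. At a signal of 1000, Eef1a2 and Eef1a1 were detected together in 1 cell, Eif5a2 and Eif5a in 5 and Eif2s3y and Eif2s3x in 1. With probe sets averaged, Eif5a2 and Eif5a were together in 7 cells and Eif2s3y and Eif2s3x in 1. After quantile normalization the median r among eIF2B subunits was 0.005, r of Eef1a1 with Eef2 was 0.045 and r of Eef1a2 with Eef1a1 was -0.715. The last was -0.699 without cells 4 and 10. The alternatives for r of Eef1a2 with Eef1a1, and those without cells 5, 13 and 14, were chosen after seeing the data. Without cells 5 and 13 the median r among eIF3 subunits was -0.025. Without cells 5, 13 and 14, r was 0.549 for Eif3e with Eif4a2, 0.466 for Eif2s3x with Eif3e and 0.819 for Eif4a2 with Eif4g3. The cause of these shifts was not tested. No paired analysis was possible because the cells formed 1 group.

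Non-detection on 1 array of an amplified library does not show that a transcript was absent. Signals between the floor and the threshold depend on the array median, which was highest in cells 1 and 10.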

Other observations

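The Y-linked Eif2s3y and the X-linked Xist, the RNA of the inactive X chromosome, were each detected in few of the 14 cells. Eif2s3y was detected in 5 cells (2, 4, 11, 12 and 14) and Xist in 4 (7, 8, 9 and 10), with no cell in common and 5 cells with neither. Genes detected in so few cells can share none without any relation between them, and this was not tested. The other Y-linked genes measured, Uty and Kdm5d, were detected in no cell, with highest signals of 194.5 and 37.5. The X-linked Eif2s3x was detected in 4 of the cells with Eif2s3y and in all 4 with Xist. The labels used here give no sex for any cell. These genes were picked after their values were seen.

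With the chosen probe sets, 6 members (10.3%) were detected in 1 cell alone, in 5 different cells. This share lies near the 9.78% of all genes detected in 1 cell alone. Eif2ak3 was detected in cell 4, Eef1aknmt in cell 5, Eef2k and Eef2kmt in cell 7, Eif4a3 in cell 11 and Eif4e2 in cell 13. Of these, Eif4e2 and Eef2k had signals of at least 1000, and the other 4 lay between 86.8 and 228.6. Other probe sets added cells 8 and 9 for Eif2ak3 and cells 6, 10, 11 and 12 for Eef1aknmt. A probe set of Eif4a3 assigned also to another gene was not counted. With the chosen probe sets, cell 5, with the fewest genes detected, held the highest signals of Eif1ad, Eif1ax, Eif3d and Eif4e among all cells. The median signal of the detected members, 17442, was also the highest in this cell, though the members detected differed between cells.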
